A study of Mus musculus with 14 samples.

Results

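Tcea1, Tcea2 and Tcea3 are the 3 mouse genes of transcription factor IIS (TFIIS), and they were taken as 3 rows of a table of 25131 genes because Tcea3 was known to differ between Rcor2 knockout (KO) and wild-type (WT) cells. All 3 passed the filter on low counts, which left 10241 genes. The values of the 3 genes in KO and WT, and the peaks within 20 kb of them, are therefore descriptions and carry no test. RNA was sequenced from 2 libraries of Rcor2 KO and 2 libraries of WT embryonic stem cells (ESCs), all from C57BL/6 mice and all grown with serum, leukemia inhibitory factor and inhibitors of MEK and GSK3. Chromatin immunoprecipitation (ChIP) of RCOR2 used ESCs of the same strain that express HA-tagged RCOR2 (2 samples), against WT or mCherry-expressing cells (1 sample each), and gave 1 peak list. Pull-down with 2 TALE proteins directed at the Nanog locus, labelled as WT ESCs (2 samples each), gave 1 peak list for each protein. The labels do not say how many KO clones were made, which part of Rcor2 was deleted, or whether replicates were separate cultures, and p-values may thus measure technical spread alone.

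TFIIS binds RNA polymerase II that has slid backwards and stalled, and stimulates the polymerase to cut the transcript it holds so that elongation can resume. Tcea1 encodes the form made in most tissues, Tcea2 a form enriched in testis, and Tcea3 a tissue-restricted form that mouse ESCs express. In mouse ESCs Tcea3 has been studied as a regulator of differentiation through Lefty1 and Nodal signalling. RCOR2 is a corepressor of the CoREST family that works with the histone demethylase LSD1.

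RCOR2 peaks lay at the start of Tcea3, where the 300 bases around the transcript start are shown because the peak covers all of them. RefSeq (GRCm38.p6) places this window, 250 bases before to 50 after the start, on the plus strand of chr4:136247707-136248006, and its table held a promoter for this 1 of the 3 members. The capitals mark the GC box, the hexamer GGGCGG, which here reads CCGCCC because it lies on the minus strand.
Tcea3 promoter: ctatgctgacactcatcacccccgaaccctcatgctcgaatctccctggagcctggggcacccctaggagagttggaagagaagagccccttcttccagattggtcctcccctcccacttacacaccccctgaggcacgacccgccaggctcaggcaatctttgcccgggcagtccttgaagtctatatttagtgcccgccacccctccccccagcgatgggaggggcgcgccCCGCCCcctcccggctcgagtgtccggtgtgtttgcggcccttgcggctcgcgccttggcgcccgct
The RCOR2 peak here, chr4:136247703-136248059, had its summit 7 bp before the transcript start. Its enrichment was 4.84-fold and its −log10 q, where q is the adjusted p of the peak caller, was 5.89, both as the authors deposited them. By −log10 q it exceeded 58.4% of the 53366 RCOR2 peaks.

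The Tcea3 promoter window was rich in G and C. It was 65.3% G and C and held 19 CpG sites, against medians of 52.7% and 7 over 27025 promoter windows of the same length. The GC box began 17 bases before the transcript start and was present once. At least 1 copy of it on either strand occurred in 35.9% of all promoter windows. CCAAT occurred once, on the minus strand, and in 37.9% of windows. Neither TATAAA (14.2% of windows) nor CACGTG (7.24%) was found on either strand of this window. These matches are descriptions of letters and show no bound factor.

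Total counts were 2951498 and 1974865 in KO, against 2368804 and 1286393 in WT. Rcor2 itself had 157 and 103 counts in the KO libraries and 193 and 107 counts in the WT libraries, not scaled to these totals. Relative to the totals, both KO libraries lay below both WT libraries. This does not check the genotype while the deleted part is unknown. The 8 ESC markers summed to 4100 and 4130 CPM (counts scaled to library size) in the KO libraries, against 3977 and 3864 CPM in the WT libraries. Within this list 2 genes were called higher and 1 lower (edgeR, adjusted p under 0.05), where 10.4% and 9.3% of all tested genes were. They were Tfcp2l1 (log2 fold change of KO over WT 0.87), Nanog (0.48, or −0.44 relative to its chromosome) and Dppa5a (−0.47). With each library left out, the call of Tfcp2l1 held. That of Nanog was lost without KO replicate 1 (0.46) or KO replicate 2 (0.52). That of Dppa5a was lost without KO replicate 1 (−0.35), KO replicate 2 (−0.58) or WT replicate 1 (−0.31). Markers of primitive endoderm (6 genes) summed to 7.25 and 3.14 CPM in KO and 1.69 and 5.33 CPM in WT, with Foxa2 at 0 counts in all libraries. Neural markers (5 genes) summed to 10.4 and 18.3 CPM in KO and 21.1 and 15.2 CPM in WT. Trophoblast markers (5 genes) summed to 23.5 and 30.3 CPM in KO and 10.5 and 7.62 CPM in WT, of which Eomes, also a mesendoderm factor, made up most in the KO. Fibroblast markers (6 genes) summed to 217 and 236 CPM in KO and 372 and 414 CPM in WT, nearly all of it Fn1, the fibronectin gene, which ESCs also express. The part of these differences in the results that follow was not tested.

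Tcea3 was the member that differed most. It was counted 128 and 69 times in the KO libraries, or 44.2 and 36.1 CPM, and 565 and 291 times in the WT libraries, or 238 and 222 CPM. Both KO libraries lay far below both WT libraries, and the replicates of a group differed by at most 1.22-fold. The mean was 40.1 ± 5.71 CPM in KO and 230 ± 11.6 CPM in WT (SD, n = 2 each), so the KO level was 17.5% of the WT level. The log2 fold change of KO over WT was −2.51 (SE 0.20), and 135 of the 10241 tested genes had a lower one. In these bulk samples fewer cells that express a gene and less RNA per cell cannot be told apart.

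Tcea1, the widely expressed form, was also lower in the KO, by less. It was counted 319 and 253 times in the KO libraries (110 and 132 CPM) and 431 and 258 times in the WT libraries (182 and 197 CPM). The groups did not overlap, with means of 121 ± 15.7 CPM in KO and 189 ± 10.5 CPM in WT (SD, n = 2 each) and a log2 fold change of −0.64 (SE 0.18). The 4 other tested genes within 2 Mb of it were lower too, with a median of −0.85, and the part of this shared difference in the Tcea1 value was not tested, nor was DNA copy number. RefSeq lists a processed copy of Tcea1, Tcea1-ps1 on chromosome 15, which is not a row of the count table. The labels do not say how reads shared by both were counted, so the Tcea1 level is uncertain to that extent.

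Tcea2, the testis-enriched form, had few counts. It was counted 23 and 8 times in the KO libraries (7.94 and 4.19 CPM) and 18 and 4 times in the WT libraries (7.59 and 3.05 CPM). The groups overlapped, and replicates of a group differed by 1.90-fold in KO and 2.49-fold in WT, more than the group means of 6.06 ± 2.65 CPM in KO and 5.32 ± 3.21 CPM in WT (SD, n = 2 each). The log2 fold change was 0.14 (SE 0.69), so no difference of this gene was detectable at this depth. Without WT replicate 1 it was 1.02, and without WT replicate 2 or KO replicate 1 it was −0.29 and −0.41. Of the 3 members, 2 had KO libraries wholly below the WT libraries, as did 28.8% of all tested genes, and 0 had them wholly above, as did 28.1%. Of all tested genes 9.3% were called lower (edgeR, adjusted p under 0.05). Nothing is read from these counts, since Tcea3 was chosen on this contrast.

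**Figure D1:**
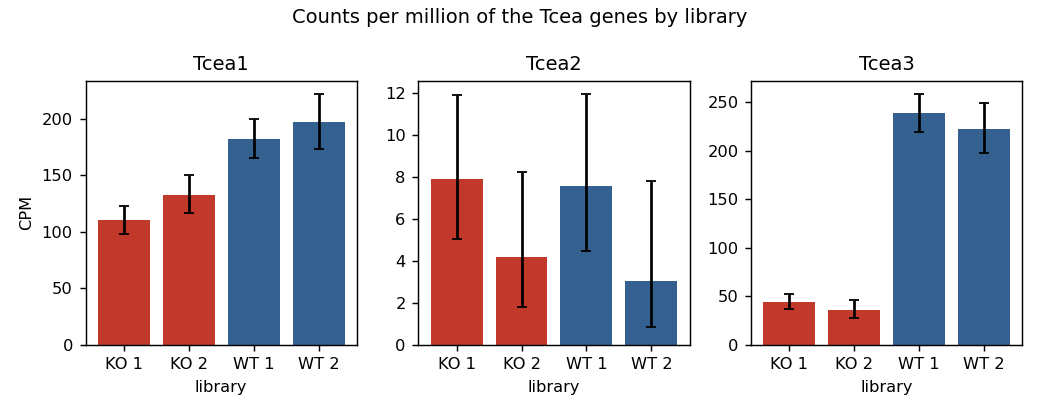
CPM (vertical axes, each from 0 on its own scale) of Tcea1, Tcea2 and Tcea3 in the 2 KO and 2 WT libraries, as bars with exact 95% Poisson intervals of the counts, which cover counting error only. Tcea3 stands at 44.2 and 36.1 CPM in KO against 238 and 222 CPM in WT, while the Tcea2 intervals overlap.

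The mix of the 3 transcripts differed between the groups. Tcea3 made up 27.2% and 20.9% of all Tcea counts in the KO libraries (Wilson 95% intervals 23.4% to 31.4% and 16.9% to 25.6%), against 55.7% and 52.6% in the WT libraries (52.6% to 58.7% and 48.5% to 56.8%). Tcea1 made up 67.9% and 76.7% in the KO libraries (63.5% to 71.9% and 71.8% to 80.9%), against 42.5% and 46.7% in the WT libraries (39.5% to 45.6% and 42.5% to 50.8%). Tcea3 thus gave more counts than Tcea1 in both WT libraries and fewer in both KO libraries. Tcea3 had 0.401 and 0.273 counts for each Tcea1 count in KO, against 1.31 and 1.13 in WT. Tcea2 made up 4.89% and 2.42% in KO (3.28% to 7.24% and 1.23% to 4.71%) and 1.78% and 0.723% in WT (1.13% to 2.79% and 0.282% to 1.84%). Transcript lengths were not used here, so a share compares libraries, and does not rank the 3 genes by molecules.

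Tcea1 did not make up in counts for the lower Tcea3. The 3 genes summed to 162 and 173 CPM in the KO libraries, against 427 and 421 CPM in the WT libraries. The mean sum was 167 ± 7.38 CPM in KO and 424 ± 4.32 CPM in WT (SD, n = 2 each), so the KO sum was 39.5% of the WT sum. Of the gap of 257 CPM between the group means, Tcea3 accounted for 73.9% and Tcea1, whose neighbours were lower too, for 26.4%.

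**Figure D2:**
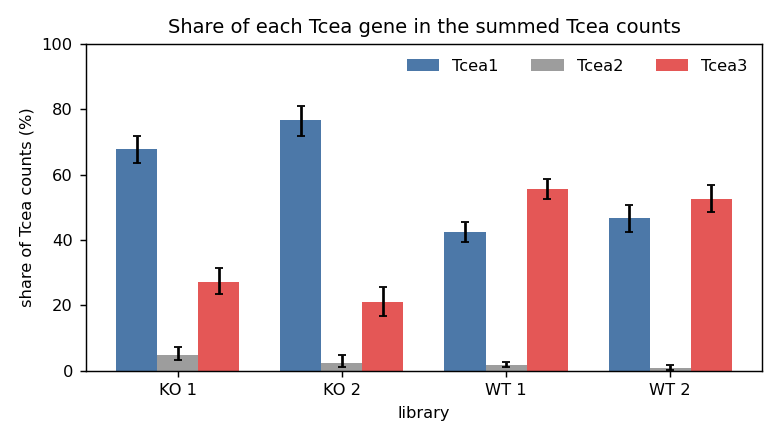
Share of Tcea1, Tcea2 and Tcea3 in the summed Tcea counts (vertical axis, percent) in each KO and WT library, with Wilson 95% intervals. Tcea1 is the taller bar in both KO libraries and Tcea3 in both WT libraries.

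In all, 8 RCOR2 summits lay in the Tcea3 interval (chr4:136247936-136274903) or within 20 kb of it. Of these, 2 were inside this interval, near its lower end, which lies before the transcript start used for the promoter window. The second of them (chr4:136248645-136248845) was enriched 3.92-fold. A further 4 lay before the gene, in or closest to Asap3, between 1227 and 11955 bp away, with 3.46-fold to 4.61-fold enrichment. The other 2 lay after it, inside Zfp46, at 10527 and 11085 bp. Every one of the 8 had a −log10 q of 5.89 or less. The summits just outside the 20 kb limit lay 22516 bp before Tcea3 and 24208 bp after Tcea1. As many peaks as around Tcea3 or more lay around 15.9% of tested genes, and around 14.2% of the 1538 tested genes of similar length.

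Tcea1 carried the strongest peak of the 3 genes. Its interval is chr1:4857694-4897909, and the peak chr1:4857483-4858624 spanned the lower end of it with the summit 780 bp inside. Its enrichment was 10.1-fold and its −log10 q 24.8, above 97.2% of all RCOR2 peaks by −log10 q. Around it lay 3 weaker peaks, of which the next, chr1:4855037-4855964, was enriched 5.51-fold. All 4 Tcea1 peaks fell within 2599 bp of that end, and none in the rest of the gene.

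Tcea2 (chr2:181680297-181688067) had 1 peak in its window and none inside. That peak, chr2:181671322-181671653, lay 8764 bp away inside Sox18, the gene of an endothelial transcription factor, and was enriched 3.92-fold. At least 1 RCOR2 summit within this reach was found for 92.8% of tested genes, and 67.3% had one within 1 kb of an end of the gene interval. By strongest peak the order of the 3 genes was Tcea1, Tcea3, Tcea2, and by size of the KO difference it was Tcea3, Tcea1, Tcea2. The place of Tcea2 in the latter rests on a log2 fold change of 0.14 (SE 0.69). Any relation between the peaks and the KO differences was not tested. Of the 17 peaks pulled down with the TALE proteins directed at the Nanog locus, 0 lay within 20 kb of a Tcea gene. With so few peaks, nothing is read from this.

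**Figure D3:**
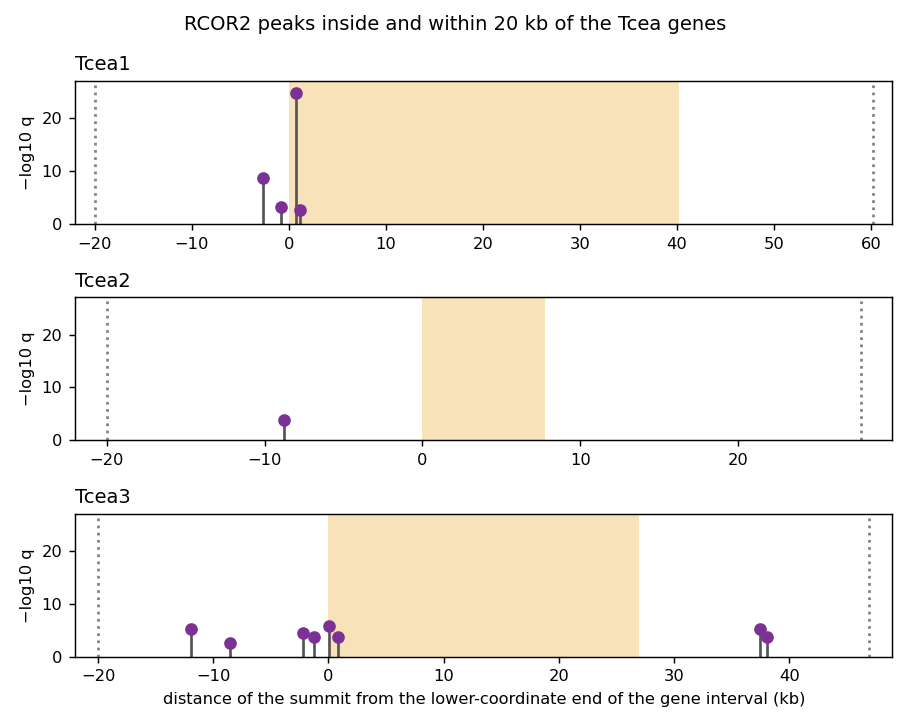
RCOR2 peak summits by distance (kb) from the lower-coordinate end of each gene interval (shaded), with the deposited −log10 q on the vertical axis and dotted lines at 20 kb on either side. Tcea1 has 4 summits near its lower end, 1 of them at a −log10 q of 24.8, Tcea2 has 1 summit outside the gene, and Tcea3 has 8 summits of at most 5.89.

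Both tested neighbours within 100 kb of Tcea1 fell, where 9.3% of all tested genes were called lower. Lypla1, an acyl-protein thioesterase gene, had 113 and 99.9 CPM in KO and 188 and 197 CPM in WT (log2 fold change −0.85, SE 0.18; edgeR, adjusted p = 0.000296). Mrpl15, of the mitochondrial ribosome, had 305 and 273 CPM in KO and 645 and 563 CPM in WT (−1.06, SE 0.15; edgeR, adjusted p = 2.14e-07). Within 2 Mb there were 2 more tested genes, seen after the values: Atp6v1h, a subunit of the vacuolar proton pump (−0.85, SE 0.24; edgeR, adjusted p = 0.00800), and Rb1cc1, an autophagy gene (−0.30, SE 0.32; edgeR, adjusted p = 0.574). The call of Atp6v1h was lost without KO replicate 1 (−0.84), KO replicate 2 (−0.84) or WT replicate 2 (−0.69). The 4 genes had a median of −0.85. The 553 tested genes of chromosome 1 other than Tcea1, these 4 included, had a median of −0.12.

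Around Tcea3, 0 of the 3 tested neighbours within 100 kb changed (edgeR; also 0 at an unadjusted p under 0.05 and 0 by DESeq2). Of all tested genes 10.4% were called higher and 9.3% lower. The log2 fold changes were −0.05 (SE 0.66) for Asap3, an ARF GTPase-activating protein gene whose interval ends 1359 bp before Tcea3, −0.33 (SE 0.59) for the cell cycle factor E2f2, and −0.18 (SE 0.19) for the RNA-binding protein gene Hnrnpr. Only Hnrnpr was well counted among them. Among the 43 tested genes within 2 Mb, 1 rose and 2 fell, to be read beside the same shares, and the median was 0.14. Sh2d5, near the edge of that window, had a log2 fold change of −2.53 at a low level (1.30 CPM in KO and 7.60 CPM in WT on average). The gene that rose, named after its values were seen, was Id3, an inhibitor of basic helix-loop-helix factors, with 608 and 375 counts in KO and 64 and 48 counts in WT (2.71, SE 0.22; edgeR, adjusted p = 4.81e-15). Chromosome 4 as a whole had a median of −0.00 over its other 669 tested genes, so the Tcea3 difference was −2.50 relative to it.

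Next to Tcea2, 1 of 5 tested neighbours rose and 0 fell, where 10.4% of all tested genes were called higher and 9.3% lower (edgeR; 0 lower also at an unadjusted p under 0.05 and by DESeq2). It was Rgs19, a regulator of G protein signalling whose interval lies 352 bp from that of Tcea2, at 31.8 and 40.3 CPM in KO and 18.1 and 14.5 CPM in WT (1.11, SE 0.36; edgeR, adjusted p = 0.0205). This call was lost without KO replicate 2 (0.96) or WT replicate 2 (0.98), and with DESeq2 (adjusted p = 0.0926). Among the 36 tested genes within 2 Mb of Tcea2, 4 rose and 1 fell, and the median was 0.19. The median over the other 812 tested genes of chromosome 2 was −0.07.

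**Figure D4:**
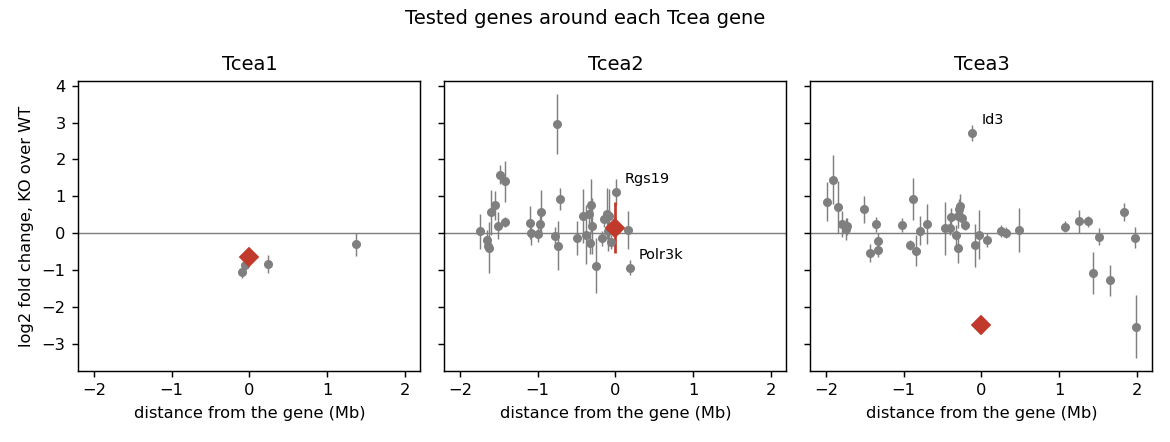
Log2 fold change of KO over WT (vertical axis) with SE for each tested gene within 2 Mb of Tcea1, Tcea2 and Tcea3, by distance between gene midpoints (Mb), and the Tcea gene itself as a red diamond. All 4 genes around Tcea1 lie below 0, whereas Tcea3 at −2.51 lies apart from its close neighbours and Id3 at 2.71 above them.

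The genes whose pattern over the 4 libraries was most like that of Tcea3 came from other chromosomes. Likeness was the Euclidean distance of log2 CPM after subtraction of each gene's mean, for which the median over 10240 genes was 2.55. The closest gene was Id4, another inhibitor of basic helix-loop-helix factors, at a distance of 0.134, with 24 and 13 counts in KO and 119 and 54 counts in WT. Rec114, a gene of meiotic recombination, followed among the well-counted genes at 0.262, with 67 and 31 counts in KO and 331 and 141 counts in WT. The others were low: 6330410L21Rik (5 and 2 counts in KO, 26 and 16 in WT), Gm10030 (2 and 1 in KO, 23 and 12 in WT) and Rbfox3 (4 and 1 in KO, 24 and 13 in WT). Their fitted log2 fold changes, −2.95, −3.81 and −3.22 in that order, were lower than the −2.51 of Tcea3. The log2 CPM behind the distance carry a prior count of 2, which weighs most at low counts. Tcea1 ranked 1426 by this distance (1.90) and Tcea2 6893 (2.82), so neither paralog followed Tcea3 closely.

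The other genes of transcript elongation were called in the KO about as often as all tested genes. Over 5 lists (74 different genes, 66 of them tested), 6 genes rose and 6 fell, and 54 were not called. This is 12 of 66, where 19.7% of all tested genes were called. The median log2 fold change was 0.00 over the lists and −0.02 over all tested genes. RCOR2 peaks lay inside or within 20 kb of 62 of the 66, where 92.8% of all tested genes had one.

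Among proteins that share a domain with TFIIS, 0 of 12 tested genes rose and 1 fell (edgeR; 2 higher and 1 lower at an unadjusted p under 0.05; DESeq2 0 and 1). Of all tested genes 10.4% were called higher and 9.3% lower. Spocd1 and Polr1h matched no row by these names. The gene that fell was Polr3k, a subunit of RNA polymerase III with a zinc ribbon like that of TFIIS, at 75.2 and 72.7 CPM in KO and 137 and 148 CPM in WT (−0.94, SE 0.20; edgeR, adjusted p = 0.000305). Its counterpart in polymerase II, Polr2i, was at −0.52 (SE 0.27; edgeR, adjusted p = 0.168). Eloa, the elongin subunit with a TFIIS-like domain, was at 0.42 (SE 0.26; edgeR, adjusted p = 0.286), the TFIIS-related gene Tceanc2 at −0.06 (SE 0.31; 0.933) and the mediator subunit gene Med26 at 0.07 (SE 0.32; 0.923). Of 7 Tceal genes, X-linked and named for likeness to TFIIS, 2 were tested and 0 called (edgeR; 1 higher and 0 lower at an unadjusted p under 0.05; DESeq2 0). They were Tceal8 (−0.17, SE 0.22) and Tceal9 (0.36, SE 0.15).

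Of 13 subunits of RNA polymerase II, 2 rose and 0 fell (edgeR; 1 lower at an unadjusted p under 0.05; DESeq2 0 in either direction). Polr2d was at 0.74 (SE 0.22; edgeR, adjusted p = 0.0128) and Polr2m at 0.45 (SE 0.16; 0.0410). Of 21 tested genes of pausing and release, 3 rose and 2 fell (edgeR; 4 higher and 3 lower at an unadjusted p under 0.05; DESeq2 0 and 1), where 10.4% of all tested genes were called higher and 9.3% lower. Those that rose were Ell (1.06, SE 0.35) and Mllt3 (0.95, SE 0.30), both of the super elongation complex, and Nelfcd of the pausing factor NELF (0.83, SE 0.27). Those that fell were Aff4, a scaffold of the super elongation complex (−0.83, SE 0.19), and Nelfa (−0.64, SE 0.23) of NELF, which was named after its values were seen. Of 19 genes of elongation through chromatin and of stalled polymerase, 1 rose and 3 fell (edgeR; 1 higher and 3 lower at an unadjusted p under 0.05; DESeq2 0 and 2). The same 10.4% and 9.3% of all tested genes stand beside this count and that of the 13 polymerase II subunits. The elongin subunit gene Eloc rose (0.43, SE 0.15). Wdr61 of the PAF complex (−0.74, SE 0.16), the kinase gene Cdk12 (−0.70, SE 0.18) and Gtf2f2 of TFIIF (−0.77, SE 0.24) fell. Ercc6, whose product acts on stalled polymerase, was at 0.11 (SE 0.68).

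Of the 12 calls, that of Polr3k held with each library left out, and the others did not. Without KO replicate 1, the calls of Polr2d (0.77), Polr2m (0.55), Ell (1.16), Nelfcd (0.84), Eloc (0.36), Aff4 (−0.67), Nelfa (−0.39), Wdr61 (−0.60) and Gtf2f2 (−0.49) were lost. Without KO replicate 2, those of Polr2d (0.71), Polr2m (0.35), Ell (0.97), Mllt3 (0.78), Nelfcd (0.83), Eloc (0.52) and Cdk12 (−0.64) were lost. Without WT replicate 1, those of Polr2d (0.63), Polr2m (0.49), Ell (0.81), Nelfa (−0.61) and Gtf2f2 (−0.50) were lost, and without WT replicate 2 those of Polr2m (0.42), Mllt3 (0.79), Nelfcd (0.71) and Nelfa (−0.65). Chromosomes 8 and 11 were shifted as a whole, with medians of 0.52 and −0.49, and relative to these Ell was at 0.55, Aff4 at −0.34 and Cdk12 at −0.22.

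**Figure D5:**
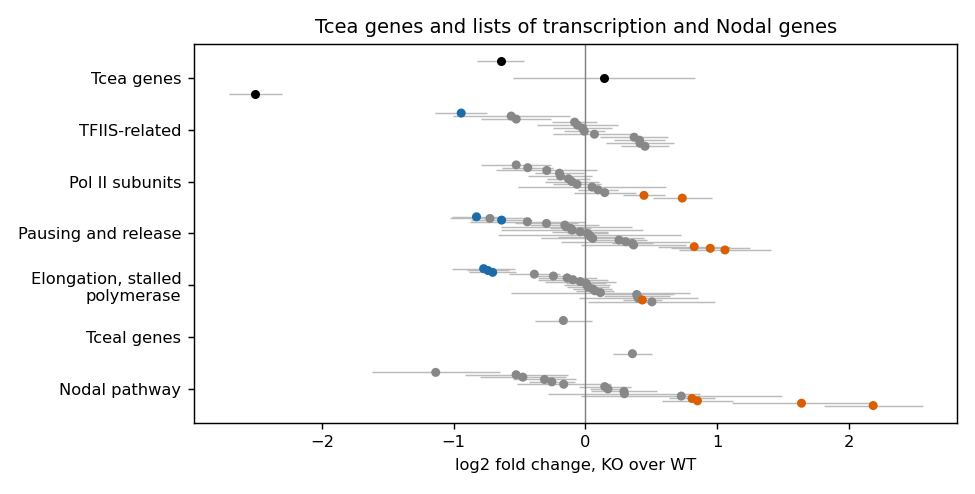
Log2 fold change of KO over WT (horizontal axis) with SE for the 3 Tcea genes (black) and each tested gene of 6 lists, orange where called higher, blue where called lower and grey where not called (edgeR, adjusted p under 0.05). Tcea3 at −2.51 lies below every tested gene of these lists.

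The Nodal pathway, in which Tcea3 has been studied in mouse ESCs, had 4 of 15 tested genes higher and 0 lower (edgeR; 1 lower at an unadjusted p under 0.05; DESeq2 2 higher and 0 lower), where 10.4% of all tested genes were called higher. Among those that rose were the proprotein convertase gene Pcsk6 (0.85, SE 0.27; edgeR, adjusted p = 0.0188), the receptor gene Acvr1b (1.64, SE 0.53; 0.0203) and the ligand gene Gdf3 (0.81, SE 0.18; 0.000463). Lefty1, the Nodal antagonist, had 33 and 12 counts in KO and 40 and 31 counts in WT (−1.14, SE 0.49; edgeR, adjusted p = 0.0942). Nodal itself was at −0.16 (SE 0.36) and Lefty2 at 0.15 (SE 0.20). The call of Pcsk6 was lost without KO replicate 1 (0.78), KO replicate 2 (0.93) or WT replicate 2 (0.69), and that of Acvr1b without KO replicate 1 (1.36) or WT replicate 1 (1.23). Gdf3 lies on chromosome 6, whose median was 0.92, and relative to this it was at −0.11. Off the shifted chromosomes 3, 6, 8 and 11, a choice made after seeing the data, 2 of 13 genes were higher and 0 lower.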

How the data were processed

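The authors deposited a table of unnormalized counts for each gene symbol and library. STAR 2.5.2b, Trimmomatic 0.36, featureCounts, Subread and SAMtools 1.8 appear in the submitters' processing notes, as do GRCm38 and mm10, with no role for each. The labels do not state how strand or molecular identifiers were handled. RCOR2 and TALE peaks carry the authors' deposited fold enrichment and −log10 q, with MACS2 2.1.1.20160309 named in the same notes. Peak names show a call on merged libraries.

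KO was set against WT with edgeR 4.0.16 (R 4.3.3): filterByExpr, TMM scaling, quasi-likelihood test, Benjamini-Hochberg adjustment over 10241 genes, two-sided, adjusted p under 0.05. Each SE is the log2 fold change over the square root of F. CPM use TMM-scaled totals, and log2 CPM a prior count of 2. The scripts were tested on simulated counts. DESeq2 1.42.0 was an alternative. Of 25131 rows, 25027 were placed on RefSeq GRCm38.p6, and 26 rows that carry a date were not named. Replicates differed by more than sampling noise (chi-square over degrees of freedom 4.22 in KO and 4.78 in WT). Intervals cover counting error only. Named were the members, tested neighbours within 100 kb, the 5 genes nearest to Tcea3 in pattern, and up to 4 called genes a list. The members and lists were chosen with earlier results of these data known. The input, the ChIP controls and the ATAC-seq sample were not used here. Some genes of the lists are counted but not reported by name here.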

Additional observations from a re-analysis of the deposited data

How the results depend on the processing

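The direction for Tcea1 and Tcea3 was the same, lower in KO, under every alternative run (DESeq2 size factors, library size only, no filter, DESeq2, replicate block, chromosome median and each library left out). With a library left out, the log2 fold change ran from −2.67 to −2.36 for Tcea3, from −0.76 to −0.51 for Tcea1 and from −0.41 to 1.02 for Tcea2. Shares with 1 library are those printed for the other library. Same-numbered libraries did not deviate together (r = −0.05 across genes, which are not replicates). With 2 libraries a group this value cannot exclude pairs, and the labels do not say whether the numbers mark them. With the replicate block 969 genes were higher and 853 lower, and Tcea3 was at −2.52. Of the transcription lists 4 genes were then higher and 5 lower, without the calls of Polr2m, Eloc and Nelfa (edgeR, adjusted p = 0.0708, 0.0622 and 0.0502). Over all genes 1062 were higher and 952 lower. DESeq2 gave 650 and 506, and leaving out a library gave 569 to 920 higher and 440 to 779 lower. For the transcription lists DESeq2 gave 0 higher (9 at an unadjusted p under 0.05) and 4 lower. Leaving out a library gave 0 to 4 higher (at 0, without KO replicate 2, edgeR had 5 at an unadjusted p under 0.05) and 2 to 5 lower. Of 926 values of 103 other genes, 66 lost a call, 1 gained one and 0 reversed one. Genes that were not called could change sign, as did Hnrnpr (−0.18, and 0.08 without WT replicate 2). Off chromosomes 3, 6, 8 and 11, a choice made after seeing the data, 5 transcription genes were higher and 4 lower. Peaks with a −log10 q of at least 5 numbered 2 for Tcea1, 0 for Tcea2 and 3 for Tcea3. Within 10 kb Tcea3 had 5, and within 50 kb Tcea1 had 9 and Tcea3 15. Shares per coding base were not run, since no protein table was used here. The low counts limit what can be said of Tcea2.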
